A study of Homo sapiens with 40 samples.

Results

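The transcription factors FOXA1, FOXA2, FOXA3, HNF4A, GATA6, SOX2, SOX9 and NKX2-1, which build and maintain the lung and the other endoderm organs, were compared between A549 control cells and A549 cells in which SETDB1 had been disrupted. They were chosen by symbol as a set of lineage factors, by a rule that uses no measured value, though with earlier results of these data known, and all 8 were found among the 62486 gene IDs of the count table. Of the 8 genes, 7 passed the filter on low counts and were tested among 17767 genes, and NKX2-1 did not pass it. A549 is an established cell line from a human lung adenocarcinoma, and SETDB1 methylates histone H3 to lay down H3K9me3, found on silenced chromatin. The RNA-seq comparison held 3 libraries of control cells (genotype CT) and 3 libraries of cells edited with CRISPR/Cas9 and a guide RNA carried by a plasmid (genotype KO). Whether the knockout cells were a single clone or a pool, what the control cells received, and whether the libraries of a genotype came from separate cultures are not given in the sources used here, so p-values measure the spread between these libraries, which may be technical.

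FOXA factors are forkhead proteins that bind target sites within compacted chromatin and open it for other factors, and GATA6 works beside them in the early endoderm. HNF4A is a nuclear receptor that drives liver and gut genes, with the FOXA proteins in a network whose members regulate each other. In the developing lung, SOX2 marks the proximal airway and SOX9 the growing distal tips, while NKX2-1 defines the lung and alveolar lineage and is widely described as lost in A549.

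Libraries held 18065062 to 48364919 counts, with 21.0% to 24.0% of them on mitochondrial genes. Most of that lay on the ribosomal RNA gene MT-RNR2, which alone held 18.7% to 21.5% of counts. SETDB1 itself fell from 38.6 ± 1.04 CPM (counts scaled to the TMM-adjusted library size; SD, n = 3) in control to 21.9 ± 1.32 CPM (SD, n = 3) in knockout libraries, a log2 fold change of -0.82 (SE 0.060). Changes were widespread: edgeR's quasi-likelihood test called 62.8% of tested genes at an adjusted p under 0.05, 32.8% higher and 30.0% lower in knockout, and 65.8% had groups whose CPM did not overlap.

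All 7 tested lineage factors passed the same threshold, against that background of 62.8%. Of these, 5 rose (FOXA1, FOXA3, GATA6, SOX2 and SOX9) and 2 fell (FOXA2 and HNF4A), and none had overlapping groups. Changes of 2-fold or more were seen in 3 of them, all increases, where 14.7% of tested genes changed that far and 9.86% rose that far. Their median log2 fold change was 0.76, where the median of all tested genes was 0.0038.

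**Figure D1:**
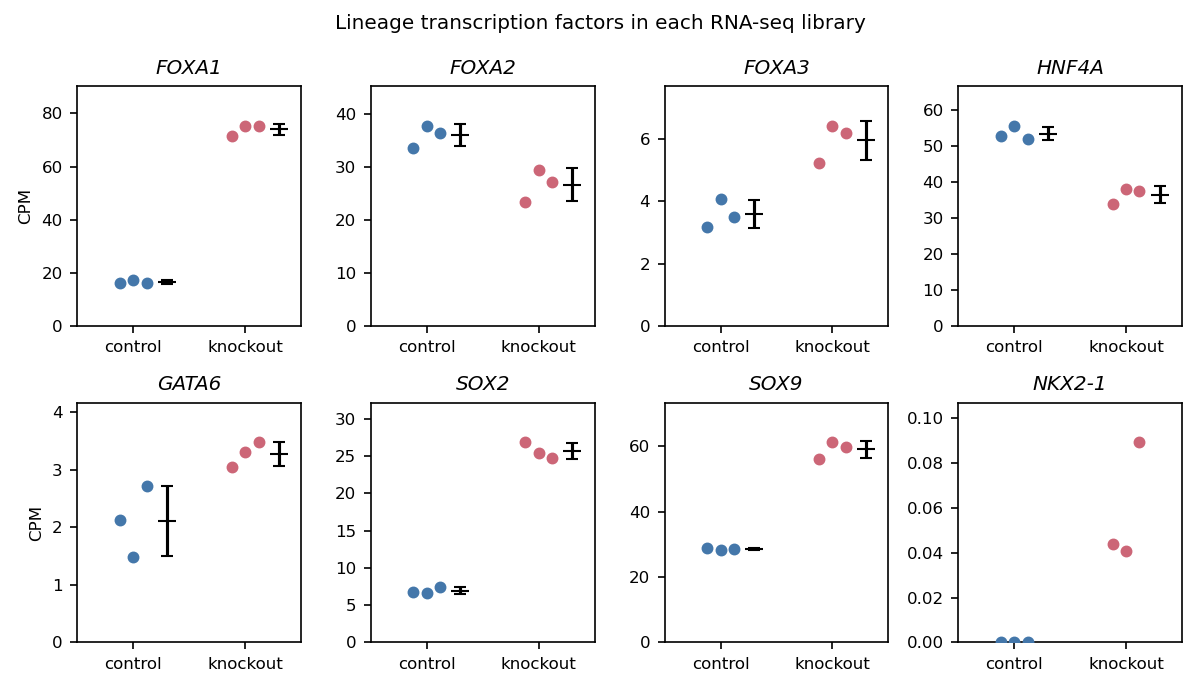
Each panel plots 1 gene, with its CPM on a linear axis from 0 for the 3 control (blue) and 3 knockout (red) libraries, and black marks for the mean ± SD (not drawn for NKX2-1, which was not tested). FOXA1 sits at 16.1 to 17.3 CPM in control and 71.4 to 75.3 CPM in knockout libraries, and FOXA2 and HNF4A are the panels in which knockout libraries lie lower.

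The FOXA family split. FOXA1 (ENSG00000129514, chromosome 14) was measured at 16.3, 17.3 and 16.1 CPM in the control libraries and at 71.4, 75.3 and 75.2 CPM in the knockout libraries. Every knockout library stood far above every control library, and within a genotype the values lay close together. The mean rose from 16.6 ± 0.656 to 73.9 ± 2.23 CPM (SD, n = 3 each), 4.46-fold, with a log2 fold change of 2.16 (SE 0.057, adjusted p 1.6e-22 in edgeR). Of all tested genes, 4.46% had a higher log2 fold change.

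FOXA2 (ENSG00000125798, chromosome 20), the paralog that acts earliest in the endoderm, moved the other way. Its CPM was 33.6, 37.7 and 36.4 in control libraries and 23.4, 29.4 and 27.2 in knockout libraries. All 3 knockout libraries lay lower, and the gap between the groups was about as wide as the spread within them. The knockout mean of 26.6 ± 3.04 CPM was 74.2% of the control mean of 35.9 ± 2.08 CPM (SD, n = 3 each), a log2 fold change of -0.41 (SE 0.071, adjusted p 2.1e-05 in edgeR).

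FOXA3 (ENSG00000170608, chromosome 19), the family member best known from liver and intestine, was the least covered of the 3, with 74 to 316 counts per library. It gave 3.19, 4.08 and 3.50 CPM in control and 5.24, 6.41 and 6.19 CPM in knockout libraries, so the groups did not overlap. The mean rose 1.66-fold, from 3.59 ± 0.456 to 5.95 ± 0.624 CPM (SD, n = 3 each), with a log2 fold change of 0.76 (SE 0.12, adjusted p 4.5e-06 in edgeR).

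The start region of FOXA1 is shown because a second gene, TTC6 (ENSG00000139865), begins there on the opposite strand and rose with it. TTC6, which encodes a protein with tetratricopeptide repeats, was measured at 1.40, 1.05 and 1.37 CPM in control and at 7.46, 6.59 and 6.37 CPM in knockout libraries. All knockout values exceeded all control values, and the log2 fold change was 2.38 (SE 0.14, adjusted p 3.6e-14 in edgeR). In RefSeq's GRCh38.p14 annotation the starts of both genes lie 380 bases apart, and the 300-base windows from 250 bases before to 50 after each start share 121 bases. The windows are chr14:37595200-37595499 on the minus strand for FOXA1 and chr14:37595379-37595678 on the plus strand for TTC6. Both are printed 5′ to 3′ on the gene's own strand, with capitals for matches on either strand to the forkhead motif TGTTTNC and the SOX motif CNTTGT.
FOXA1: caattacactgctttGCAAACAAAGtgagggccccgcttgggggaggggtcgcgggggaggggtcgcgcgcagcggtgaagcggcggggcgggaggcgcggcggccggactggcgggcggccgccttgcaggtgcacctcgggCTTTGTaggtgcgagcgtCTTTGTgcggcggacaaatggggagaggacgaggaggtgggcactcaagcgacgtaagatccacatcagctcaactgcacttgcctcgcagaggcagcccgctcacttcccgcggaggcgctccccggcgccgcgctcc
TTC6: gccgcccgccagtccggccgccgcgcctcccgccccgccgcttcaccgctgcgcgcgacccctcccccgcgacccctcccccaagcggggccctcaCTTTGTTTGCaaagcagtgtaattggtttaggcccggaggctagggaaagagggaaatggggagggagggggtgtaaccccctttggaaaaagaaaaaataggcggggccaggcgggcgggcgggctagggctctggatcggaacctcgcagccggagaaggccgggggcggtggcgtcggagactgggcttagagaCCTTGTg
The windows hold 1 forkhead match in common, the same bases read from opposite strands, 235 bases before the FOXA1 start and 151 bases before the TTC6 start by the distance to its first base. A SOX match overlaps it, at -231 from the FOXA1 start and -154 from the TTC6 start. FOXA1 has further SOX matches at -107 and -89, and TTC6 has one at 43. Matches of these motifs are common, with TGTTTNC in 18.0% and CNTTGT in 35.5% of all 35116 promoter windows of that length, so they describe the letters and say nothing of binding. The FOXA1 window was 69.3% G or C with 34 CpG pairs, where the median window had 58.7% and 14. The annotated transcripts run away from each other from these starts. The strand setting of the counting is not given in the sources used here, and without it reads of any transcript that crosses into the other gene cannot be told apart.

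HNF4A (ENSG00000101076, chromosome 20) fell. Its control libraries gave 52.7, 55.5 and 51.9 CPM and its knockout libraries 33.7, 37.9 and 37.6 CPM, with the groups well apart. The knockout mean of 36.4 ± 2.33 CPM was 68.2% of the control mean of 53.4 ± 1.86 CPM (SD, n = 3 each), a log2 fold change of -0.55 (SE 0.055, adjusted p 1.6e-09 in edgeR). Its paralog HNF4G, a nuclear receptor of the gut, rose from 0.812 ± 0.149 to 16.7 ± 0.155 CPM (log2 fold change 4.36).

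HNF4A has a pair of annotated starts, whose transcripts the gene-level counts do not separate, so the decrease cannot be assigned to either. The windows of the upstream start (chr20:44355449-44355748) and the downstream start (chr20:44400989-44401288) are shown to place both, on the plus strand in GRCh38.p14, with capitals for the GATA motif AGATAA in the first and the SOX motif in the second.
HNF4A upstream start: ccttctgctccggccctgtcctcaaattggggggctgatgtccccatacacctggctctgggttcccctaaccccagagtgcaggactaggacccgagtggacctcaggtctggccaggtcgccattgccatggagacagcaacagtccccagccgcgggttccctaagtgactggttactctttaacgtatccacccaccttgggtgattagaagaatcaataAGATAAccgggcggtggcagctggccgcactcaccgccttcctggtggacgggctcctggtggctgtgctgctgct
HNF4A downstream start: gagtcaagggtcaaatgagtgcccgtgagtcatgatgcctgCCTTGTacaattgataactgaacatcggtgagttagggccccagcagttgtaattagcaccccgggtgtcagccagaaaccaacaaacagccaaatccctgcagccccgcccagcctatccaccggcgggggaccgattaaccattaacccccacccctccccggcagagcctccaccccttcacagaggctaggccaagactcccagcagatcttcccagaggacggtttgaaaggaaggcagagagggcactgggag
The AGATAA match lies at -26 from the upstream start, and 10.3% of all windows hold that motif. At the downstream start the SOX match is at -209. These windows hold fewer CpG pairs than that of FOXA1, 11 and 9.

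GATA6 (ENSG00000141448, chromosome 18), a zinc finger factor of the early endoderm and the lung epithelium, had the lowest counts of the tested set, 27 to 163 per library. It was measured at 2.12, 1.49 and 2.71 CPM in control and at 3.06, 3.31 and 3.48 CPM in knockout libraries. The knockout values were close together, the control values were spread, and the highest control library came near the lowest knockout library. The mean rose 1.55-fold, from 2.11 ± 0.612 to 3.28 ± 0.211 CPM (SD, n = 3 each), with a log2 fold change of 0.58 (SE 0.16, adjusted p 0.00286 in edgeR). Across 15 other settings its log2 fold change ran from 0.42 to 0.83 and the largest adjusted p was 0.0265, the widest relative range among the increases. GATA4 and GATA5, its relatives in heart and gut, rose too, by log2 fold changes of 0.43 and 1.08.

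SOX2 (ENSG00000181449, chromosome 3), the factor of the proximal airway and of stem cells, gave 6.80, 6.57 and 7.45 CPM in control and 26.8, 25.4 and 24.8 CPM in knockout libraries. The lowest knockout library was several times the highest control library. Its mean rose 3.70-fold, from 6.94 ± 0.460 to 25.7 ± 1.04 CPM (SD, n = 3 each), with a log2 fold change of 1.88 (SE 0.078, adjusted p 5.8e-18 in edgeR). Of all tested genes, 5.08% had a higher log2 fold change. SOX2 is a gene of a single exon that lies within the long noncoding gene SOX2-OT, whose own row held 12 counts over the control and 24 over the knockout libraries and was not tested.

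The SOX2 window, chr3:181711675-181711974 on the plus strand in GRCh38.p14, is shown as that of the other gene that rose over 3-fold, again with the SOX motif in capitals.
SOX2: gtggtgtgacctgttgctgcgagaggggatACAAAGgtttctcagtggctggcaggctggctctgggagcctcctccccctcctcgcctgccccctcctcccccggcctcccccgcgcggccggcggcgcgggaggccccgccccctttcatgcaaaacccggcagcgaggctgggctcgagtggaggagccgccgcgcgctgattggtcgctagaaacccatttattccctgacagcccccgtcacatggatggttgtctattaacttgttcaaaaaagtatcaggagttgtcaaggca
It holds 20 CpG pairs and 1 SOX match, at -220, and none of the forkhead, AGATAA or TATAAA motifs. Unlike FOXA1, SOX2 has no tested neighbour that rose with it to a like degree.

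SOX9 (ENSG00000125398, chromosome 17), the factor of the distal lung tips and of progenitors in pancreas and intestine, was measured at 28.8, 28.4 and 28.5 CPM in control and at 56.0, 61.1 and 59.8 CPM in knockout libraries. The control libraries were nearly level and all knockout libraries stood well above them. The mean rose 2.07-fold, from 28.6 ± 0.245 to 59.0 ± 2.66 CPM (SD, n = 3 each), with a log2 fold change of 1.05 (SE 0.054, adjusted p 8.6e-16 in edgeR). SOX2 and SOX9, which mark opposite ends of the growing airway, thus both rose in the knockout libraries. In these bulk libraries, more cells with a transcript and more transcript per cell cannot be told apart.

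NKX2-1 (ENSG00000136352, chromosome 14) was near 0 in every library. Its row held 0, 0 and 0 counts in control and 1, 2 and 2 counts in knockout libraries. Each library is under 3 counts, the limit that a count of 0 allows, equal to 0.103 to 0.166 CPM in control and 0.0609 to 0.134 CPM in knockout libraries by depth. The knockout group as a whole held 5 counts, a mean of 0.0578 CPM, above the 0.0317 CPM that 3 counts over the group come to, and the control group held 0. With no filter on low counts, edgeR gave it an adjusted p of 0.127, and no fold is given for so few counts. The antisense gene NKX2-1-AS1 was at 0 counts in all 6 libraries.

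**Figure D2:**
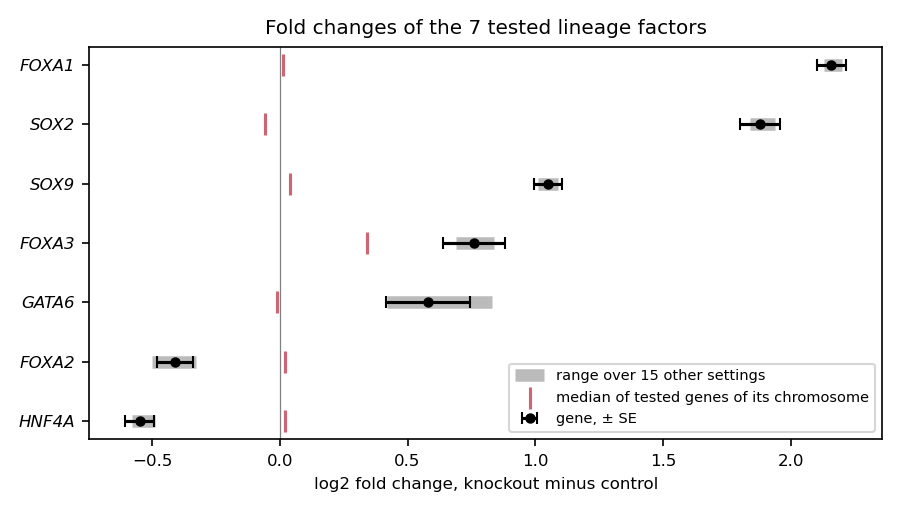
The x axis is the log2 fold change (knockout minus control) of each tested lineage factor, drawn as a black point with its SE, with a grey bar for the range over 15 other settings and a red tick for the median of tested genes on the same chromosome. FOXA1, SOX2 and SOX9 lie at 2.16, 1.88 and 1.05, FOXA2 and HNF4A lie below 0, and no grey bar crosses 0.

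Chromosome-wide shifts were then set beside each gene. The median log2 fold change was between -0.06 and 0.04 on chromosomes 3, 14, 17, 18 and 20, and 0.34 on chromosome 19, which carries FOXA3. Relative to its chromosome's median FOXA1 stood 2.15 higher on the log2 scale, SOX2 1.94, SOX9 1.01, GATA6 0.60 and FOXA3 0.42, while FOXA2 stood at -0.44 and HNF4A at -0.57. FOXA3 was the gene whose difference shrank most by this measure.

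The 3 nearest tested genes on each side were examined next, taken by gene order with no limit on their distance. Of 48 places in all, 11 were called higher, 17 lower and 20 not called, beside 32.8% higher and 30.0% lower over all tested genes. Around FOXA1, TTC6 apart, MIPOL1 was at a log2 fold change of 0.07 (adjusted p 0.407), SEC23A at 0.14 (adjusted p 0.0706 without control replicate 2) and GEMIN2 at -0.53, so FOXA1 stood 2.21 above the median of its 6 neighbours. SOX2 stood 2.05 and SOX9 1.16 above theirs. Beside SOX2, DNAJC19 on one side was at -0.31 and ATP11B on the other at 0.09, not called, and MCCC1 rose by 0.64. Beside SOX9, LINC00511 was at 0.18 and SLC39A11 at 0.39, and KCNJ16 and SSTR2 were at -0.64 and -0.69, both with adjusted p above 0.05 under DESeq2 (0.0912 and 0.0771). The KCNJ16 call was also lost without control replicate 3 (0.113) and that of SSTR2 without knockout replicate 2 (0.0506).

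The change of FOXA2 lay near the median of its 6 nearest tested genes, but not of a wider set. Of its 6 neighbours, 5 were lower and the other, RPL41P1, was not called, where 30.0% of tested genes were lower. THBD, which encodes thrombomodulin, was at -0.51, XRN2 at -0.17, NXT1 at -0.31 and NXT1-AS1 at -1.11, the last on 26 to 42 counts per genotype, a call lost under DESeq2 (adjusted p 0.0527) and without control replicate 1 (0.0757). FOXA2 differed from the median of these 6 by -0.09, and by -0.38 from that of 10 genes on each side. LINC00261, the noncoding gene next to FOXA2, went from 4.97 ± 0.451 to 3.98 ± 0.675 CPM (SD, n = 3 each; log2 fold change -0.34, adjusted p 0.0193 in edgeR). Its groups overlapped and the call was lost under DESeq2 (adjusted p 0.0851), without the filter (0.0544) and on leaving out control replicate 1 (0.0614), control replicate 3 (0.0541), knockout replicate 1 (0.0812) or knockout replicate 2 (0.0960).

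Of the 6 neighbours of FOXA3, 3 were called higher, beside 32.8% of all tested genes: IRF2BP1 at 1.02, MYPOP at 0.75 and DMWD at 0.41. The adjacent SYMPK (-0.10), DMPK (0.13) and CCDC61 (0.27) were not called. Under some alternatives SYMPK was called lower, and DMPK and CCDC61 higher. The change of FOXA3 was 0.42 above the neighbours' median of 0.34. HNF4A differed from the median of its neighbours by -0.36, with OSER1 at -0.30, TTPAL at -0.22 and SERINC3 at 0.37. GATA6 was 0.75 above its own, with MIR133A1HG at -1.24 and CABLES1 at 0.51. None of the 6 tested neighbours of NKX2-1 was called, PAX9 and MBIP included. The noncoding genes SOX9-AS1, GATA6-AS1 and HNF4A-AS1 held 7 to 37 counts per genotype and were not tested.

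**Figure D3:**
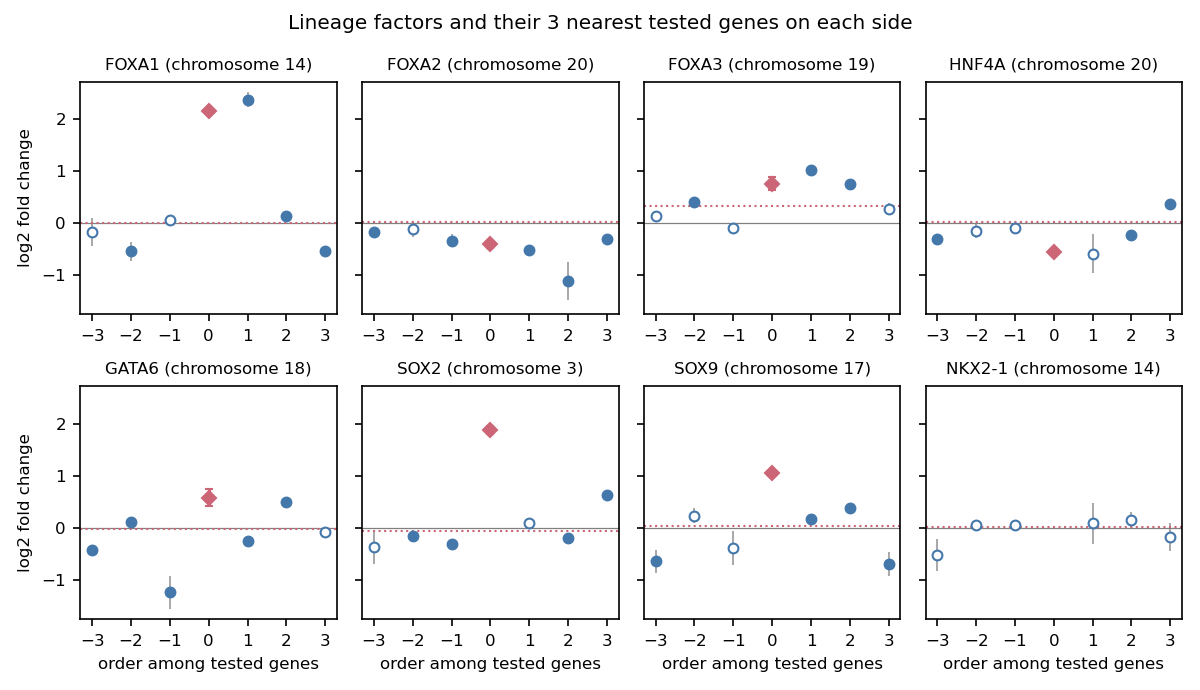
Each panel shows a lineage factor (red diamond at 0, absent for NKX2-1) and its 3 nearest tested genes on each side in RefSeq order (blue, filled where called, open where not), with log2 fold change and SE on the y axis and the chromosome median as a dotted line. TTC6 stands beside FOXA1 at 2.38, and the genes around FOXA2 lie below 0 with it.

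Other transcription factors of the endoderm and lung were read from a list of 52, of which 38 were tested. Of these, 24 rose and 7 fell, with a median log2 fold change of 0.45, and 81.6% were called where 62.8% of all tested genes were. The median was 0.53 without the filter and ran from 0.37 to 0.50 on leaving out a library. Of the 24, 3 reached the level of the filter in no control library, NR1H4 and FOXP2 among them. Such genes could be tested only if they rose, and the median and the share called include them. NR1H4, the bile acid receptor, rose from 0.256 ± 0.137 to 11.8 ± 0.487 CPM (log2 fold change 5.44). FOXP2, a forkhead factor of the distal lung epithelium, had 0 counts in all control libraries and 65, 139 and 45 in the knockout libraries, at least 60.3-fold higher if the control group as a whole is set to a floor of 3 counts. SOX17, which specifies definitive endoderm, rose from 0.688 ± 0.0743 to 2.50 ± 0.502 CPM (1.83). NR5A2, a nuclear receptor of liver and pancreas, rose from 45.9 ± 1.34 to 154 ± 2.83 CPM (1.75), and the secretory cell factor SPDEF and its relative EHF rose by 1.26 and 1.72. Among the decreases were TBX3, from 31.9 ± 0.922 to 9.08 ± 0.661 CPM (-1.82), SOX21 (-1.81), FOXQ1 (-1.45) and GRHL1 (-1.11).

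Relatives of the lineage factors by DNA-binding family went both ways, with more increases than decreases among the SOX, GATA and other forkhead genes. Over all tested genes 32.8% rose and 30.0% fell. Of 10 tested SOX genes, SOX2 and SOX9 among them, 6 rose and 2 fell, from -3.15 for SOX7 to 2.80 for SOX6, which rose from 1.82 ± 0.106 to 12.7 ± 0.797 CPM. Of 5 tested GATA genes, GATA6 included, 4 rose and GATA2 fell, by 1.40 on the log2 scale, while GATA3 rose by 1.32. Of 23 tested forkhead genes outside the FOXA family, 13 rose and 4 fell, FOXF2 by 1.17. The 13 include FOXP2, which had 0 counts in all control libraries and could be tested only if it rose. In the list of 42 such relatives that holds no lineage factor, 22 were tested, 9 rose and 5 fell, and 63.6% were called, beside 62.8% of all tested genes. Their median was 0.16, and 0.29 without control replicate 2 or 0.26 without control replicate 3. Of the 5, SOX7 reached the level of the filter in no knockout library.

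Products of the liver, gut, alveoli and airway were described in a pair of lists, picked by tissue. Whether the lineage factors drive them in these cells was not tested. Liver and gut products held 60 genes, of which 29 were tested: 23 rose and 6 fell, so that all were called, beside 62.8% of all tested genes (32.8% higher and 30.0% lower). The median log2 fold change was 1.31. It was 1.16 without the filter, 1.24 with at least 1 CPM in 3 libraries and 1.29 to 1.48 on leaving out a library. Of the 23, 5 reached the level of the filter in no control library, F5 and SERPINA1 among them. Such genes could be tested only if they rose, and the median and the share called include them. The clotting factor F5 rose from 0.145 ± 0.0977 to 4.33 ± 0.488 CPM (4.87) and the protease inhibitor SERPINA1 from 0.118 ± 0.0423 to 2.12 ± 0.198 CPM (4.18). The gut mucin MUC13 rose from 5.55 ± 0.422 to 65.2 ± 2.36 CPM (3.56), with TFF1 at 3.29 and the brush border gene VIL1 at 2.84. All 3 fibrinogen chains rose, FGA by 0.87, FGB by 1.24 and FGG by 1.26. The 6 that fell were CLDN2 (-1.62), AKR1C1 (-1.54), CYP24A1 (-1.02), F2 (-0.91), AKR1B10 (-0.87) and PROC (-0.28). How reads shared between paralogs were counted is not given in the sources used here, which touches AKR1C1, AKR1B10 and the mucins. The other 31 genes were not tested, among them ALB with 3 and 15 counts over the control and knockout groups, TTR with 0 and 20, and APOB with 1 and 0.

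Alveolar and airway products held 40 genes, of which 17 were tested, 12 rose and 2 fell, with a median of 0.52 and 82.4% called, beside 62.8% of all tested genes. Of the 12, 2 reached the level of the filter in no control library, BPIFB1 among them, and the median and the share called include them. The airway mucin MUC5B rose from 10.0 ± 1.04 to 137 ± 11.6 CPM (3.77), MUC5AC from 41.5 ± 6.30 to 110 ± 7.66 CPM (1.41) and the secretory chaperone AGR2 from 268 ± 22.1 to 979 ± 37.4 CPM (1.87). BPIFB1, an airway secretory protein, rose from 5 counts over the control group to 534 over the knockout group (6.26), and KRT15 by 3.14. HHIP, a hedgehog inhibitor, fell from 4.46 ± 0.187 to 0.613 ± 0.109 CPM (-2.83).

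Markers of the labelled tissue were checked in the same counts. Of 9 alveolar markers, 7 were under 1 CPM in both genotypes, with SFTPA1 at 0 counts, SFTPC at 6 and 10, and SFTPB at 27 and 20 over the control and knockout groups. Their summed level, nearly all from the lipid transporter ABCA3, was 62.2 to 68.9 CPM in control and 83.0 to 87.1 CPM in knockout libraries. For 5 airway secretory markers the sum went from 43.6 to 58.0 CPM in control to 226 to 264 CPM in knockout libraries, from MUC5AC and MUC5B, while SCGB1A1, the club cell marker, had 0 and 1 counts. For 3 airway basal markers the sum was 4.26 to 4.91 and 4.65 to 5.72 CPM, of which TP63, not called, made up nearly all. KRT5 had 2 and 14 counts over the control and knockout groups, and KRT14 had 0. For 5 liver markers the sum was 11.3 to 12.1 and 25.5 to 29.3 CPM, of which FGB made up nearly all.

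Of 21 markers of blood, vessel, stromal, muscle and nerve cells, 14 were under 1 CPM in both genotypes and 4 were at 0 in all libraries. Their summed level was 17.7 to 19.0 CPM in control and 19.1 to 21.6 CPM in knockout libraries. Of 8 tested, 2 were higher, beside 32.8% of all tested genes, the vessel gene CDH5 (3.95) and COL1A1 (0.30), and 2 were lower, PDGFRA (-3.19) and the nerve gene SYP (-1.40). CDH5 reached the level of the filter in no control library and PDGFRA in no knockout library. The COL1A1 call, at an adjusted p of 0.0412 in edgeR, was lost under upper quartile scaling (0.0697) and DESeq2 (0.156) and on leaving out any library other than knockout replicate 3. Other markers did not follow these: the vessel marker VWF had 2 and 3 counts over the control and knockout groups, and PDGFRB had 7 and 19, both not tested. STMN2 and ELAVL4 of nerve cells had 0, and CHGA was not called (-0.42). The vessel marker PECAM1, also planned, had no row under that symbol. PTPRC, which marks blood cells, had 2 and 0 counts, and CD3E and COL1A2 had 0. The part of any of these panels in the changes of the lineage factors was not tested.

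**Figure D4:**
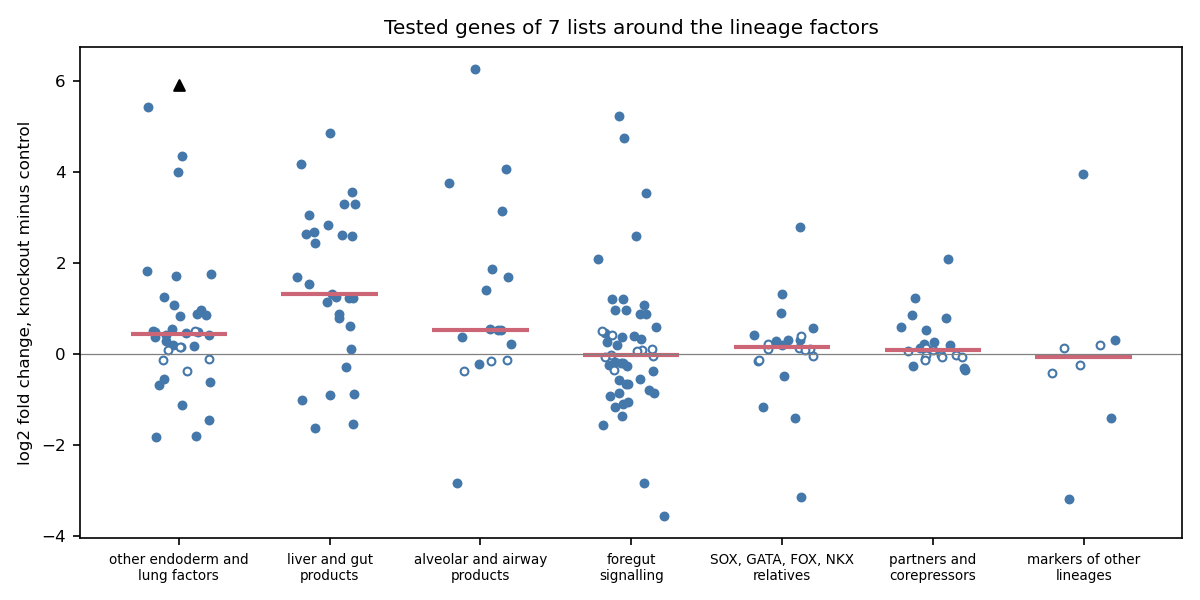
Points are the tested genes of 7 lists, with log2 fold change (knockout minus control) on the y axis, filled where called and open where not, and red bars for list medians; the horizontal scatter within a list has no meaning. The black triangle is the lower bound for FOXP2, and the medians run from -0.06 for markers of other lineages to 1.31 for liver and gut products.

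Signalling genes of the foregut, which include receptors, antagonists and targets of the signals, went both ways. Of 64 genes 49 were tested, 19 rose and 21 fell, with a median of -0.02 and 81.6% called, beside 62.8% of all tested genes. The median turned to 0.01 under scaling by library size only, to 0.02 without knockout replicate 1 and to 0.03 without control replicate 3. Of the 19, 3 reached the level of the filter in no control library, FGFR2 among them. FGFR2, the receptor through which the mesenchyme drives lung branching, went from 6 counts over the control group to 226 over the knockout group (log2 fold change 4.74), and FGFR3 rose from 2.95 ± 0.533 to 12.6 ± 1.02 CPM (2.09). The Notch target HES1 rose from 3.76 ± 0.155 to 23.0 ± 1.09 CPM. GREM1, an antagonist of bone morphogenetic proteins, fell from 31.8 ± 0.995 to 2.74 ± 0.217 CPM (-3.56), and the Wnt target AXIN2 fell by 1.05 on the log2 scale.

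The genes whose profiles over the 6 RNA-seq libraries were most like each lineage factor were found among 10897 named genes with a mean of at least 5 CPM, by the distance between centred log2 CPM profiles. Because all profiles share the same 6 libraries and 2 groups, nearness mainly reads a like fold change, and no test was made. Nearest to FOXA1 were DAPK1 (distance 0.0916), EPB41L4A and HSPB8, and DAPK1 rose from 151 ± 1.60 to 684 ± 22.4 CPM. C20orf96, GALNT6 and PTPN18 were nearest to FOXA2, and SIPA1, VASN and RAI1 to FOXA3. HNF4A had the closest match of all, FHOD3 at 0.0330, followed by RP9P and ONECUT2, itself a liver and pancreas factor that fell from 6.42 ± 0.212 to 4.32 ± 0.204 CPM. GATA6 was followed least closely, by USE1 at 0.152, TMPO-AS1 and CRYL1. Nearest to SOX2 were C1orf116, ZNF614 and ZSWIM5, and to SOX9 SSH3, PADI1 and MIR31HG.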

How the data were processed

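RNA-seq of A549 control and SETDB1 knockout cells was analysed, 3 libraries per genotype of the 40 samples of the series, grouped by their labels. Libraries were made with a stranded total RNA kit, per the labels' protocols. The authors deposited whole-number counts per gene. STAR 2.6.1c and edgeR 3.30.0 are named, with the hg19 build, in the submitters' processing notes; the counting program and its strand setting are not given in the sources used here. Symbols came from a name table that matched 58642 of 62486 IDs (93.8%); chromosomes, gene order and promoter sequences came from RefSeq tables on GRCh38.p14, which placed 87.9% of tested genes. Of the 8 lineage factors, 6 had promoter entries.

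Counts were fitted with edgeR 4.0.16 under R 4.3.3, using TMM scaling, filterByExpr with a minimum count of 10 and the robust quasi-likelihood F-test on genotype alone, with Benjamini-Hochberg adjustment over 17767 genes at 0.05. The SE is the absolute log2 fold change divided by the square root of F. On simulated counts for the same comparison (17648 genes tested), 91.9% of 99 genes changed by 1 log2 unit and 99.0% of 96 changed by 2 were recovered. There 5.10% of calls were false. Only 200 genes were changed in the simulation, where 62.8% of tested genes were called in the real counts, so these rates need not hold for them. Replicates differed by more than sampling noise and were kept apart. Depth ran from 18065062 to 48364919 counts, and floors cover counting error only.

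The genes and lists were chosen with earlier results of these data known. All 8 lineage factors were named, with their neighbours, the 5 largest called changes of each list at a mean of at least 1 CPM, and the 3 nearest profiles (log2 of CPM plus 0.5); other genes named within a list, family or panel were picked after their values were seen. DESeq2 1.42.0, limma voom 3.58.1, other scalings and filters, a replicate block and leave-one-out fits were alternatives. Some genes of the lists are not reported here by name. ChIP-seq peaks and Hi-C domains were not used here, since their positions are on hg19 and the annotation at hand is not.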

Additional observations from a re-analysis of the deposited data

How the results depend on the processing

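Under 15 alternatives each, all 7 tested lineage factors kept direction and call, with log2 fold changes of 2.13 to 2.20 (FOXA1), -0.50 to -0.33 (FOXA2), 0.69 to 0.84 (FOXA3), -0.58 to -0.49 (HNF4A), 1.84 to 1.94 (SOX2) and 1.01 to 1.09 (SOX9); the range of GATA6 is given above. Upper quartile scaling put the all-gene median at -0.031 and library size only at 0.034. Same-numbered libraries were not paired by the labels. Their deviations correlated weakly (0.11, 0.064 and 0.047). Replicates 1 and 2 matched their own number best and replicate 3 matched replicate 2, which does not settle whether they were paired. With the replicate block 5 lineage factors were again higher and 2 lower, with FOXA2 at -0.43 and GATA6 at 0.63, and over all genes it gave 6060 higher and 5595 lower. Neighbouring noncoding genes called lower went from 1 to 0 under DESeq2 and without the filter, and ran from 0 to 1 on leaving out a replicate. Markers of other cell types called higher went from 2 to 1 under upper quartile scaling and DESeq2, and ran from 1 to 2 on leaving out a replicate. Among named genes signs turned for 5 uncalled neighbours: on leaving out a replicate, SLC25A21 ran from -0.41 to 0.09, RPL41P1 from -0.22 to 0.03, CCDC39 from -0.63 to 0.22, MBIP from -0.03 to 0.17 and NKX2-8 from -0.31 to 0.35, and NKX2-8 was at -0.01 under DESeq2 and -0.07 with the replicate block; the cause was not tested. The median of markers of other cell types turned from -0.06 to 0.17 without the filter and 0.12 with at least 1 CPM in 3 libraries, and that of foregut signalling genes is given with its list. The filter at 1 CPM left no value for NXT1-AS1, RPL37AP1, MIR133A1HG, CCDC39, LINC01152, QRSL1P3 and NKX2-8. Peaks within set distances of the promoters were planned but not run.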

Other observations

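Partners and corepressors through which the lineage factors act held 26 genes, of which 23 were tested, 10 rose and 4 fell, with a median log2 fold change of 0.10 and 60.9% called, beside 62.8% of all tested genes. The median was 0.05 without knockout replicate 2. TLE genes, most of which encode corepressors that forkhead and other factors recruit, ranged from not called to a rise of over 2 log2 units. TLE2 rose from 2.24 ± 0.226 to 9.44 ± 1.58 CPM (log2 fold change 2.10), TLE5 from 63.7 ± 6.88 to 151 ± 8.11 CPM (1.24) and TLE3 from 23.6 ± 1.92 to 42.3 ± 4.11 CPM (0.85), while TLE1 and TLE4 were not called (0.06 and 0.13). TEAD1, a DNA-binding partner of YAP1, fell from 274 ± 9.55 to 214 ± 2.61 CPM (-0.36), and TEAD4 rose by 0.20.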
